A study of Mus musculus with 9 samples.

Results

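The miR-10, miR-99, miR-100 and miR-125 miRNAs were followed in the small RNA of mouse atrial appendages as 8 precursors of the miRBase class: mmu-mir-10a, mmu-mir-10b, mmu-mir-99a, mmu-mir-99b, mmu-mir-100, mmu-mir-125a, mmu-mir-125b-1 and mmu-mir-125b-2. They were chosen by name, from 661 miRNA precursors with reads. Genome-matched and unmatched reads were summed for each precursor, and the unmatched part was 0 reads for the 8 precursors in every library. The 9 libraries came from C57BL/6 mice in 3 groups of 3. Curcumin-treated mice were 18 months old and had been given curcumin, the yellow pigment of turmeric, at 100 mg/kg daily in skim milk since the age of 12 months. Old mice were 18 months old and young mice 5 months old, both without curcumin, and no transgene or mutation was labelled in any group. The labels do not say whether each library was made from 1 mouse, so the p-values given here measure the spread between libraries. The libraries were made by PANDORA-seq, which treats RNA with AlkB and T4 polynucleotide kinase before ligation so that modified and end-blocked RNAs of 15 to 45 nucleotides are also read.

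A miRNA is cut from a hairpin precursor and guides Argonaute proteins to mRNAs that pair with its seed, bases 2 to 8 from the 5′ end. The miR-10 genes lie within the Hox gene clusters of vertebrates, beside genes that pattern the body axis. The miR-99 and miR-100 genes lie upstream of a let-7 and a miR-125 gene in clusters that are kept from flies to mammals, and miR-125 is the vertebrate counterpart of lin-4, the Caenorhabditis elegans miRNA that times larval development. In mammals miR-99 and miR-100 are known for targeting mTOR, miR-125b for targeting Trp53 and for roles in blood cell formation, and miR-125a and miR-99b are transcribed together with let-7e.

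The mature 5p sequences are shown because they decide which of the precursors share a seed and which share reads. The capitals mark the seed, and the sequences are those of RefSeq for GRCm38.p6, in which all 8 precursors were found.
miR-10a-5p: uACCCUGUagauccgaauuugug
miR-10b-5p: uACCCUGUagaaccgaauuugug
miR-99a-5p: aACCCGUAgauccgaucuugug
miR-100-5p: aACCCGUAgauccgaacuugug
miR-99b-5p: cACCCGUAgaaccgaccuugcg
miR-125a-5p: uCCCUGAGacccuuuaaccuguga
miR-125b-5p: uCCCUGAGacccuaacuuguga

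The 8 precursors gave 7 different 5p sequences of 22 to 24 bases with 3 seeds. The seed ACCCUGU was held by 2 precursors, mmu-mir-10a and mmu-mir-10b. The seed ACCCGUA was held by 3, mmu-mir-99a, mmu-mir-99b and mmu-mir-100, and the seed CCCUGAG by the 3 miR-125 precursors. The miR-10 and the miR-99/100 sequences are alike at their 5′ ends, but their seeds are not the same. Counted from the 5′ end, miR-10b-5p differs from miR-10a-5p by U12A, and miR-100-5p differs from miR-99a-5p by U16A, 1 base in each pair. miR-99b-5p differs from miR-99a-5p at 4 positions, A1C, U11A, U16C and U21C. The sequences of miR-125a-5p and miR-125b-5p share their first 13 bases. The precursors mmu-mir-125b-1 and mmu-mir-125b-2 give the same 5p sequence and differ in their 3p arms, which are shown because only reads from them can tell the 2 loci apart.
miR-125b-1-3p: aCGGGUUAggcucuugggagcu
miR-125b-2-3p: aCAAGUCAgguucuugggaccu

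The positions are those of GENCODE M21 on mm10, all on the plus strand. mmu-mir-10a lies at chr11:96317165-96317274 and overlaps no annotated gene, 993 bases from Hoxb4. mmu-mir-10b lies at chr2:74726070-74726137, in introns of Hoxd3 and Hoxd4. The other 6 form 3 clusters, each with a let-7 precursor between its members. On chromosome 9, mmu-mir-100 at chr9:41531425-41531504, let-7a-2 and mmu-mir-125b-1 at chr9:41581926-41582002 span 50578 bases of introns of the non-coding gene 3110039I08Rik. On chromosome 16, mmu-mir-99a at chr16:77598936-77599000, let-7c-1 and mmu-mir-125b-2 at chr16:77646273-77646343 span 47408 bases within introns of the host gene Mir99ahg. Non-coding transcripts also overlap some of these: mmu-mir-125b-2 lies in an exon of C130023A14Rik, and mmu-mir-100 opposite an exon of Gm48742. The third cluster is far tighter: mmu-mir-99b at chr17:17830188-17830257, let-7e and mmu-mir-125a at chr17:17830812-17830879 span 692 bases within Spaca6, mmu-mir-99b in an intron and mmu-mir-125a overlapping an exon.

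Clean reads per library ranged from 12899427 to 19707803. miRNA reads made up 3.21%, 4.22% and 3.53% of clean reads in curcumin replicates 1 to 3, 3.32%, 1.23% and 2.37% in old replicates 1 to 3, and 4.66%, 1.34% and 1.88% in young replicates 1 to 3. Levels are therefore given on 2 scales: reads per 1000000 clean reads (RPM) and reads per 1000000 miRNA reads (RPMm). The libraries numbered 1 stood apart in all groups: the genome matched 72.7% of clean reads in curcumin replicate 1, 72.2% in old replicate 1 and 73.7% in young replicate 1, against 65.0% to 68.3% in the other 6, so results that turn on them are also given without them. The tissue label was checked on marker miRNAs. The 7 cardiomyocyte precursors summed to 358884 to 430735 RPMm in curcumin-treated mice, 306853 to 359948 RPMm in old mice, and 320121 to 385439 RPMm in young mice. Nearly all of this was the pair of miR-1a loci. Each miR-133a locus had 4390 to 7550 RPMm and mir-208a 476 to 1189 RPMm over the 9 libraries, while mir-499 had 0 to 23.5 RPMm and mir-208b 0 to 2.18 RPMm. The endothelial list, nearly all mir-126a, was also high, with 214741 to 281663 RPMm over the 9 libraries, so the tissue was mixed. Smooth muscle markers had 14146 to 18343 RPMm. Lists for other cell types had 637 to 1092 RPMm (epithelium), 27.8 to 121 RPMm (neuron), 21.8 to 190 RPMm (liver) and 2391 to 7908 RPMm (leukocyte) over the 9 libraries. All 4 red blood cell markers were detected and summed to 766 to 1422 in curcumin-treated mice, 1222 to 3461 in old mice and 2835 to 6353 in young mice on the same scale.

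The 8 precursors together held 2.97% to 5.41% of the miRNA reads of a library, with a half-width of the 95% Wilson interval of 0.0967 percentage points or less for counting error. Nearly all of these reads were miR-125. mmu-mir-125b-1 took 38.4% of the members' reads on average, mmu-mir-125b-2 38.2% and mmu-mir-125a 14.9%. mmu-mir-99a followed with 3.71%, mmu-mir-99b with 2.51%, mmu-mir-10a with 1.15%, mmu-mir-100 with 0.793% and mmu-mir-10b with 0.292%. Among all 661 precursors, ranked by mean level per miRNA read, the 2 miR-125b loci stood at ranks 7 and 8, mmu-mir-125a at 30, mmu-mir-99a at 53, mmu-mir-99b at 63, mmu-mir-10a at 81, mmu-mir-100 at 92 and mmu-mir-10b at 133. Leaving aside the pair of miR-125b loci, each neighbouring pair kept this order of read levels in 9 of 9 libraries, with 1 exception: mmu-mir-99a was above mmu-mir-99b in 6 of 9. Over all libraries the RPM ranges of neighbours overlapped from mmu-mir-99a downward. The ranges of the miR-125b loci, of mmu-mir-125a and of mmu-mir-99a did not overlap each other. Mature forms are of nearly one length, so no length scaling was applied.

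mmu-mir-125b-1 and mmu-mir-125b-2 were read almost equally in each library. Their reads differed by 0, −18 and 5 in curcumin replicates 1 to 3, by 69, 26 and 38 in old replicates and by −1, 4 and 65 in young replicates, counted as mmu-mir-125b-1 minus mmu-mir-125b-2. The largest of these gaps was 0.664% of the reads of both loci. The shared 5p sequence cannot be assigned to 1 locus, and the values are near equal, so they are given as their sum, miR-125b. This sum had 699, 1145 and 1145 RPM in curcumin-treated mice, 1106, 497 and 893 RPM in old mice, and 1031, 562 and 759 RPM in young mice. It averaged 996 ± 257 RPM in curcumin-treated mice, 832 ± 309 RPM in old mice and 784 ± 236 RPM in young mice (SD, n = 3 each), and the 3 groups overlapped. mmu-mir-125a had 157.9, 197.2 and 197.4 RPM in curcumin-treated mice, 218.7, 98.7 and 159.8 RPM in old mice, and 219.9, 109.1 and 153.0 RPM in young mice. Both miR-125 sequences were lowest in old replicate 2, the library with the smallest miRNA content.

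Of the 3 precursors with the miR-99/100 seed, mmu-mir-99a and mmu-mir-100 both varied widely, while mmu-mir-99b varied least. mmu-mir-99a had 51.5, 71.4 and 50.5 RPM in curcumin-treated mice, 59.5, 13.9 and 35.1 RPM in old mice, and 72.0, 20.8 and 23.3 RPM in young mice. mmu-mir-100, which differs from it by 1 base, had 9.65, 13.1 and 14.1 RPM in curcumin-treated mice, 14.0, 2.88 and 7.89 RPM in old mice, and 12.3, 4.98 and 5.81 RPM in young mice. In both, old replicate 2 was lowest and the groups overlapped. mmu-mir-99b was the steadiest, with 24.8, 26.2 and 29.3 RPM in curcumin-treated mice, 33.0, 18.4 and 30.2 RPM in old mice, and 29.7, 23.8 and 29.4 RPM in young mice. It averaged 26.8 ± 2.29 RPM in curcumin-treated mice, 27.2 ± 7.72 RPM in old mice and 27.6 ± 3.35 RPM in young mice (SD, n = 3 each), and the means lay within 1 RPM of each other. A few values were fractional, such as 721.5 reads of mmu-mir-99a and 201.5 of mmu-mir-100 in curcumin replicate 3.

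The 2 miR-10 precursors had low levels, and mmu-mir-10b the lowest of all 8. mmu-mir-10a had 15.7, 19.4 and 15.7 RPM in curcumin-treated mice, 22.8, 5.82 and 10.3 RPM in old mice, and 17.3, 5.43 and 9.69 RPM in young mice. mmu-mir-10b had 0.800, 9.20 and 5.46 RPM in curcumin-treated mice, 6.70, 1.10 and 2.63 RPM in old mice, and 2.33, 1.21 and 3.49 RPM in young mice. Curcumin-treated mice thus held both its lowest and its highest library. These were 14 reads in curcumin replicate 1 and 159 reads in curcumin replicate 2. The exact 95% Poisson intervals, 0.437 to 1.34 RPM and 7.83 to 10.7 RPM, do not meet. The libraries were picked as the extremes of 9, and the intervals hold for the counting of reads alone, since PCR copies of 1 molecule may be read as separate reads.

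**Figure D1:**
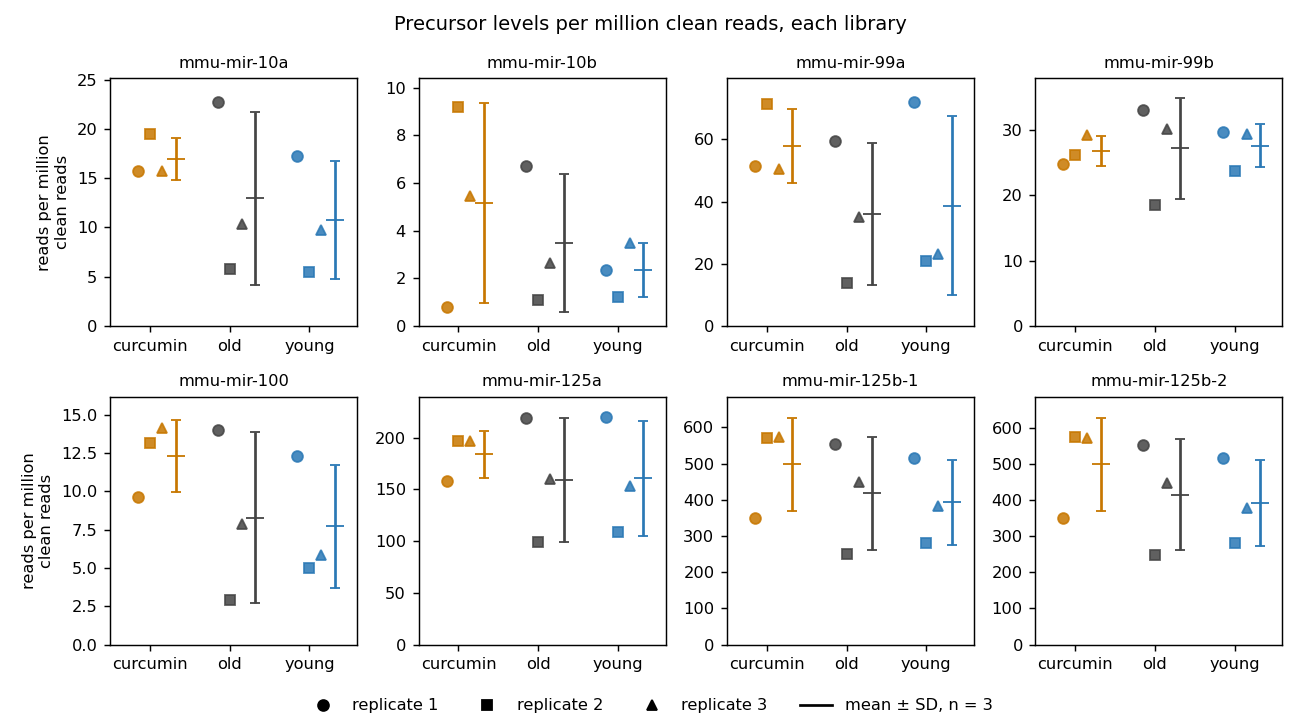
Levels in RPM, reads per 1000000 clean reads, of the 8 precursors in each of the 9 libraries, curcumin-treated, old and young mice from left to right, with 1 panel and 1 linear axis from 0 for each precursor; symbols give the replicate number, and bars the mean ± SD (n = 3). The groups overlap in all panels, mmu-mir-99b varies least, and mmu-mir-10b has its lowest and highest value, 0.800 and 9.20 RPM, within the curcumin-treated mice.

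The precursors differed in how widely they varied over the libraries, given here beside the spread of the miRNA content. An association with that content was not tested. All miRNA reads together varied 3.80-fold over the 9 libraries relative to clean reads, with a coefficient of variation (CV) of 42.9%. mmu-mir-10a (4.19-fold, CV 44.6%), mmu-mir-100 (4.90-fold, CV 44.9%) and mmu-mir-99a (5.18-fold, CV 49.4%) ranged at least as widely in RPM. mmu-mir-125a ranged 2.23-fold (CV 26.3%) and miR-125b 2.30-fold (CV 29.0%). mmu-mir-99b ranged 1.79-fold, with a CV of 16.1%. The test per miRNA read took in the 8 members and 210 other miRNA precursors. Of all these, 2 had a lower CV in RPM than mmu-mir-99b, and the median CV was 45.1%. mmu-mir-10b varied most of the 8, with a range of 11.5-fold and a CV of 79.0%.

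On the scale of miRNA reads the order of steadiness changed. mmu-mir-99a then had a CV of 14.0%, and 18 of the tested precursors had a lower one. The CV was 18.7% for mmu-mir-100, 18.9% for mmu-mir-10a, 23.1% for mmu-mir-125a, 23.6% for miR-125b, 38.9% for mmu-mir-99b and 54.6% for mmu-mir-10b, against a median of 37.3%. mmu-mir-99a and mmu-mir-99b, which share a seed, were thus steady against different denominators. These are descriptions over the same 9 libraries. The 2 scales are tied to each other through the miRNA content, and bulk tissue cannot tell fewer cells of a type apart from less RNA per cell.

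**Figure D2:**
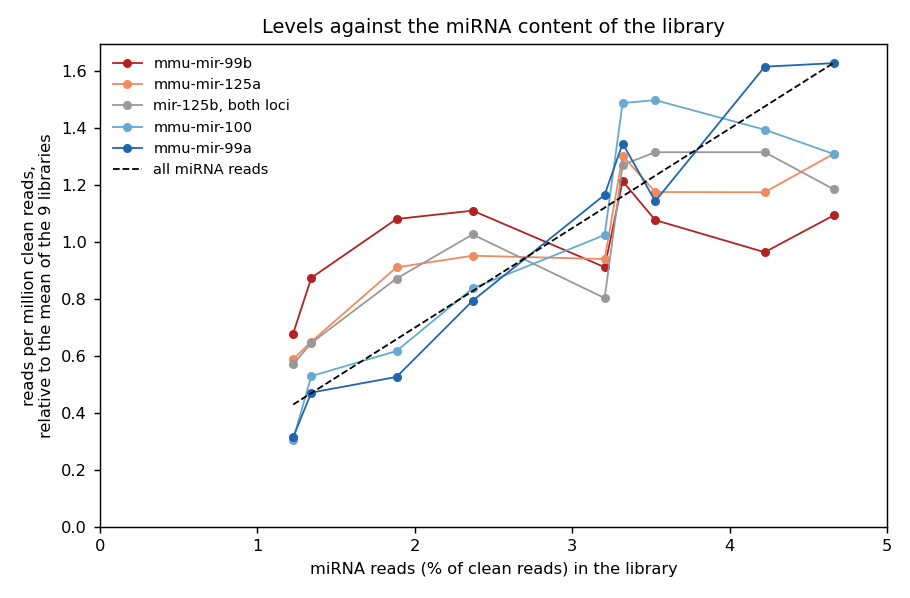
The level of 5 members in each library relative to its mean over the 9 libraries (RPM, linear axis) against the miRNA reads of the library in percent of clean reads, with the dashed line for all miRNA reads. mmu-mir-99a and mmu-mir-100 rise broadly with the dashed line, though mmu-mir-100 lies below it in young replicate 1, the rightmost library. mmu-mir-99b (red) stays nearest to 1, with a range of 1.79-fold against 3.80-fold for all miRNA reads.

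Old and young mice addressed ageing of the atrium. None of the 8 precursors passed edgeR's quasi-likelihood test on either scale. Per clean read, the test called 0 of 520 features (0%), at an adjusted p under 0.05, and 4 had an unadjusted p under 0.05. The log2 changes of the members, old against young mice, ran between −0.10 ± 0.61 (SE) for mmu-mir-99a and 0.57 ± 0.88 for mmu-mir-10b, all with an adjusted p of 0.995. Their median was 0.09, with 5 of 8 above 0, beside a median of −0.08 over all 520 features and −0.24 over the 209 miRNAs among them. Per miRNA read, 0 of the tested miRNAs (0%) were called, 3 had an unadjusted p under 0.05, and the smallest adjusted p was 0.985. The members' log2 changes lay between −0.07 ± 0.35 for mmu-mir-99b and 0.36 ± 0.72 for mmu-mir-10b. The change was 0.03 ± 0.22 for mmu-mir-125a, 0.10 ± 0.24 for each miR-125b locus and 0.31 ± 0.27 for mmu-mir-10a. The direction of several of these small changes turned when 1 library was left out, so no direction with age is given. Per clean read without old replicate 1, mmu-mir-10a was at −0.42, mmu-mir-10b at −0.33 and mmu-mir-100 at −0.52, and without young replicate 1 mmu-mir-99a was at 0.71. Old and young libraries overlapped for all 8 members on both scales, beside 2.12% of features apart and higher and 1.92% apart and lower per clean read, and 4.13% of miRNAs apart and higher and 3.21% apart and lower per miRNA read. DESeq2 and limma-voom also called 0 features and 0 miRNAs here, with 5 and 3 features and 4 and 3 miRNAs at an unadjusted p under 0.05.

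Curcumin-treated against old mice addressed the effect of curcumin at the same age. These comparisons share libraries: the old mice serve here and above, and the young mice above and below. Per clean read, 0 of 520 features (0%) were called and 20 had an unadjusted p under 0.05. The members' log2 changes were 0.68 ± 0.61 (SE) for mmu-mir-99a, 0.58 ± 0.59 for mmu-mir-100, 0.57 ± 0.88 for mmu-mir-10b, 0.39 ± 0.57 for mmu-mir-10a, 0.25 ± 0.37 for mmu-mir-125b-1, 0.26 ± 0.37 for mmu-mir-125b-2, 0.21 ± 0.37 for mmu-mir-125a and −0.02 ± 0.34 for mmu-mir-99b, with adjusted p between 0.832 and 0.995. Their median was 0.33, with 7 of 8 above 0, beside 0.31 over all features and 0.46 over the 209 miRNAs. The miRNA content of curcumin libraries, 3.21% to 4.22%, compared with 1.23% to 3.32% in old mice, moves with this scale, and its part in the result was not tested. DESeq2 and limma-voom also called 0 features, with 29 and 22 at an unadjusted p under 0.05. The groups overlapped for all 8 members per clean read, beside 10.6% of features apart and higher and 2.12% apart and lower in curcumin-treated mice.

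The changes per clean read were larger without the 3 libraries numbered 1. They were then 1.98 for mmu-mir-10b (adjusted p = 0.0708 by edgeR's quasi-likelihood test), 1.32 for mmu-mir-99a (0.0795), 1.34 for mmu-mir-100 (0.0982) and 1.12 for mmu-mir-10a (0.112). The miR-125 precursors were at 0.61 to 0.72 and mmu-mir-99b at 0.19, with adjusted p of 0.149 to 0.716. None of the 8 passed the test, beside 25 higher calls of 521 features (4.8%). Old replicate 1 was the highest old library per clean read for all 8. Curcumin replicate 1 was the lowest curcumin library for mmu-mir-10b, mmu-mir-99b, mmu-mir-100, mmu-mir-125a and the miR-125b loci. Leaving them out therefore raised these changes, and the p-values are no independent support for a change. Without old replicate 1 alone, mmu-mir-10b was at 1.47, mmu-mir-100 at 1.19 and mmu-mir-10a at 1.07, and without curcumin replicate 2 mmu-mir-10b was at −0.15.

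Per miRNA read, 6 of 8 members had a log2 change below 0 in the same comparison, and no call was made. For 4 of them, mmu-mir-99b, mmu-mir-125a and the miR-125b loci, the curcumin and old libraries did not overlap. mmu-mir-99b had 773, 621 and 830 RPMm in curcumin-treated mice, 994, 1503 and 1275 RPMm in old mice and 638, 1770 and 1560 RPMm in young mice. mmu-mir-125a had 4925, 4671 and 5596 RPMm in curcumin-treated mice, 6588, 8044 and 6750 RPMm in old mice and 4719, 8125 and 8119 RPMm in young mice. miR-125b, summed over both loci, had 21802, 27113 and 32454 RPMm in curcumin-treated mice, 33310, 40453 and 37731 RPMm in old mice and 22128, 41829 and 40265 RPMm in young mice. In all of these, each curcumin library lay below each old library, while young replicate 1 lay among the curcumin libraries. Per clean read the same members were not lower beyond their SE. Their log2 changes were −0.02 for mmu-mir-99b, 0.21 for mmu-mir-125a, and 0.25 and 0.26 for the miR-125b loci. The miRNA reads that form the denominator here were 3.21% to 4.22% of clean reads in curcumin libraries and 1.23% to 3.32% in old libraries. mmu-mir-99b averaged 741 ± 108 RPMm in curcumin-treated mice and 1257 ± 255 RPMm in old mice (SD, n = 3 each). The means of mmu-mir-125a were 5064 ± 478 RPMm in curcumin-treated mice and 7127 ± 798 RPMm in old mice, and those of miR-125b 27123 ± 5326 RPMm in curcumin-treated mice and 37165 ± 3605 RPMm in old mice.

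The fitted log2 changes, curcumin-treated against old mice per miRNA read, were −0.76 ± 0.35 (SE) for mmu-mir-99b and −0.49 ± 0.22 for mmu-mir-125a, both with an adjusted p of 0.503 by edgeR's quasi-likelihood test. They were −0.46 ± 0.24 for mmu-mir-125b-1 and −0.45 ± 0.24 for mmu-mir-125b-2, with an adjusted p of 0.565. The unadjusted p was 0.0542 for mmu-mir-99b and 0.0454 for mmu-mir-125a, and 0 of the tested miRNAs (0%) passed the adjusted threshold, with 18 at an unadjusted p under 0.05. DESeq2 and limma-voom called 0 miRNAs as well, with 22 and 11 at an unadjusted p under 0.05. Groups that did not overlap, with curcumin-treated mice lower, were found for 4 of 8 members: mmu-mir-99b, mmu-mir-125a and the 2 miR-125b loci, which share 1 mature 5p sequence. The same was found for 31 of all tested miRNAs (14.2%), and 4.13% were apart and higher. Within numbers 1, 2 and 3 the log2 differences, curcumin-treated minus old, were −0.36, −1.27 and −0.62 for mmu-mir-99b, −0.42, −0.78 and −0.27 for mmu-mir-125a and −0.61, −0.58 and −0.22 for miR-125b. Their common sign follows from the groups not overlapping. Without the 3 libraries numbered 1, which leaves 2 per group, mmu-mir-99b passed the test (log2 change −0.94, adjusted p = 0.0161) among 19 lower calls of 206 miRNAs (9.22%), and mmu-mir-125a did not (−0.53, adjusted p = 0.0506). Old replicate 1 was the lowest old library for both. Leaving it out therefore raised their old means, and these p-values are no independent support for a change. mmu-mir-10b was at 0.88 without the libraries numbered 1 (adjusted p = 0.184). The 2 smooth muscle markers summed to 17538 to 18343 RPMm in curcumin-treated mice, 14146 to 16647 RPMm in old mice and 14454 to 15810 RPMm in young mice. Singly, they moved in opposite directions. Of the pair, mir-143 averaged 15104 ± 441 RPMm in curcumin-treated mice and 10927 ± 1590 RPMm in old mice, and mir-145a 2929 ± 77.4 RPMm in curcumin-treated mice and 4174 ± 239 RPMm in old mice (SD, n = 3 each). Their part in the result was not tested.

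The other 4 members overlapped between all groups per miRNA read. mmu-mir-99a had 1607, 1691 and 1433 RPMm in curcumin-treated mice, 1792, 1132 and 1482 RPMm in old mice and 1544, 1551 and 1234 RPMm in young mice. mmu-mir-100 had 301, 311 and 400 RPMm in curcumin-treated mice, 422, 235 and 333 RPMm in old mice and 265, 371 and 309 RPMm in young mice. mmu-mir-10a had 490.0, 460.5 and 445 RPMm in curcumin-treated mice, 686, 474 and 437 RPMm in old mice and 370, 404 and 514 RPMm in young mice. Of these 3, the curcumin libraries lay closest together for mmu-mir-10a, at 465 ± 22.9 in curcumin-treated mice against 532 ± 134 in old mice (SD, n = 3 each). mmu-mir-10b had 24.9, 217.9 and 155 RPMm in curcumin-treated mice, 202, 89.2 and 111 RPMm in old mice and 50.1, 90.4 and 185 RPMm in young mice, again with both extremes in curcumin-treated mice. The log2 changes, curcumin-treated against old mice, were 0.10 ± 0.22 (SE) for mmu-mir-99a, 0.03 ± 0.30 for mmu-mir-100, −0.20 ± 0.27 for mmu-mir-10a and −0.03 ± 0.70 for mmu-mir-10b, with adjusted p between 0.783 and 0.991. The median over the 8 members was −0.32, with 2 of 8 above 0, beside −0.25 over all tested miRNAs, of which 67 were above 0.

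**Figure D3:**
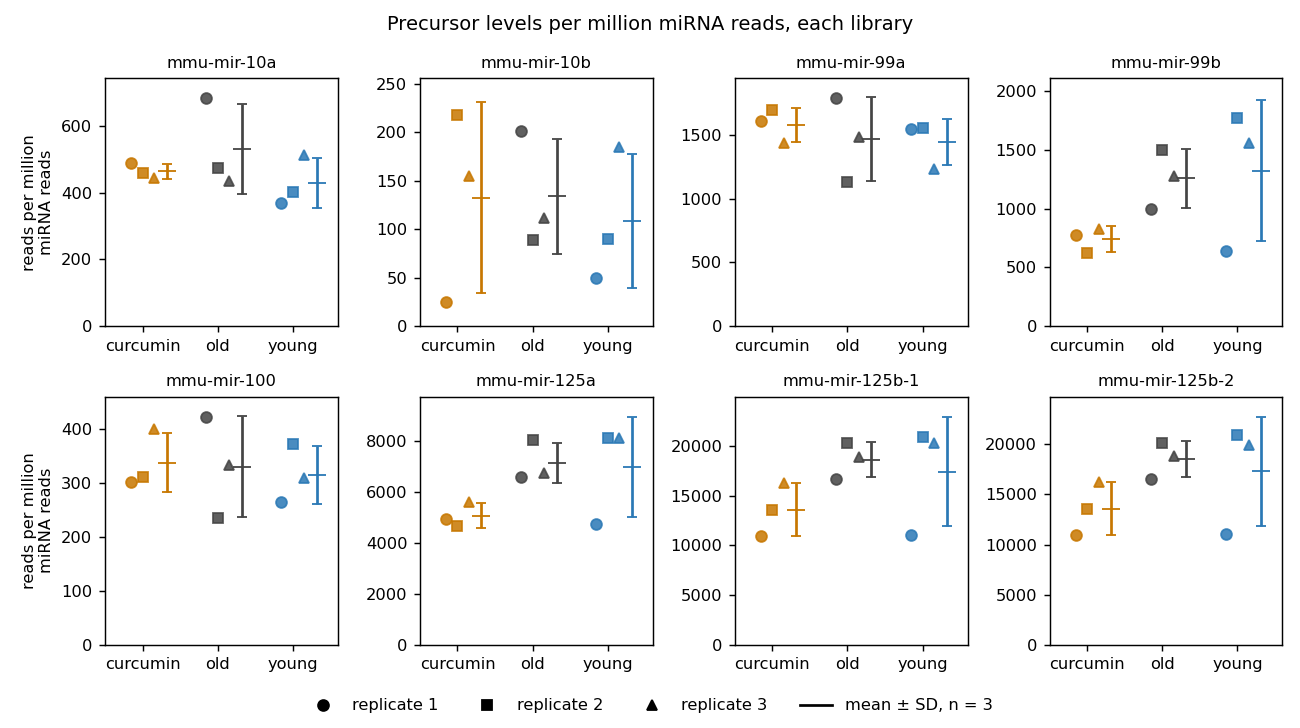
Levels in RPMm, reads per 1000000 miRNA reads, of the 8 precursors in each library, curcumin-treated, old and young mice from left to right, on linear axes from 0; symbols give the replicate number, and bars the mean ± SD (n = 3). In the panels of mmu-mir-99b, mmu-mir-125a, mmu-mir-125b-1 and mmu-mir-125b-2 the 3 curcumin libraries lie below the 3 old libraries, and young replicate 1 lies beside the curcumin libraries.

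Curcumin-treated against young mice differ by age and treatment together. Per clean read, 0 of 520 features (0%) were called and 20 had an unadjusted p under 0.05. The members' log2 changes ran between −0.05 ± 0.34 (SE) for mmu-mir-99b and 1.14 ± 0.89 for mmu-mir-10b, all with an adjusted p of 0.997. Their median was 0.46, with 7 of 8 above 0, beside 0.19 over all features and 0.26 over the 209 miRNAs. The groups overlapped for all 8 members on both scales, beside 7.31% of features apart and higher and 2.12% apart and lower per clean read, and 4.13% of miRNAs apart and higher and 9.63% apart and lower per miRNA read. Per miRNA read, 0 of the tested miRNAs (0%) were called and 28 had an unadjusted p under 0.05. The log2 changes were −0.83 ± 0.35 for mmu-mir-99b and −0.46 ± 0.22 for mmu-mir-125a, both with an adjusted p of 0.347, and −0.36 ± 0.24 and −0.35 ± 0.24 for mmu-mir-125b-1 and mmu-mir-125b-2, with an adjusted p of 0.446. The other 4 members lay between 0.11 ± 0.30 for mmu-mir-100 and 0.33 ± 0.72 for mmu-mir-10b. The members' median was −0.12, with 4 of 8 above 0, beside −0.31 over all tested miRNAs. DESeq2 called 1 feature and 2 miRNAs in this comparison and limma-voom 0 and 0, none of them a member, with 27 and 21 features and 33 and 22 miRNAs at an unadjusted p under 0.05.

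Young replicate 1, the library with the largest miRNA content, changed the values of this comparison on both scales. Per clean read, leaving it out put mmu-mir-99a at 1.39 (adjusted p = 0.261), mmu-mir-100 at 1.19 and mmu-mir-10a at 1.17 (both adjusted p = 0.315). Without the 3 libraries numbered 1, mmu-mir-99a was at 1.47 (adjusted p = 0.0528), mmu-mir-10b at 1.66 (0.100), mmu-mir-100 at 1.34 (0.0949) and mmu-mir-10a at 1.22 (0.0939). No member was called per clean read in either fit, beside 29 higher calls of 521 features (5.57%) without the libraries numbered 1. Young replicate 1 was the highest young library per clean read for mmu-mir-10a, mmu-mir-99a and mmu-mir-100. Leaving it out therefore raised these changes, and their p-values are no independent support for a change. Without curcumin replicate 2 mmu-mir-10b was at 0.41.

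Per miRNA read, 4 members had log2 changes below 0. Without young replicate 1, mmu-mir-99b passed the test (log2 change −1.17, adjusted p = 0.0197), as did mmu-mir-125a (−0.68, adjusted p = 0.0230), mmu-mir-125b-1 (−0.60, adjusted p = 0.0438) and mmu-mir-125b-2 (−0.59, adjusted p = 0.0438), all 4 lower in curcumin-treated mice. These were 4 of 8 members beside 26 lower calls of 222 miRNAs (11.7%). Young replicate 1 was the only young library among the curcumin libraries for these 4 members. Leaving it out therefore set the groups apart, and these p-values are no independent support for a change. Leaving out any other single library gave 0 calls in this comparison. The next fit also leaves young replicate 1 out. Without the 3 libraries numbered 1 the same 4 were lower: mmu-mir-99b by −1.20 (adjusted p = 0.00137), mmu-mir-125a by −0.66 (adjusted p = 0.0160), mmu-mir-125b-1 by −0.47 (adjusted p = 0.0403) and mmu-mir-125b-2 by −0.46 (adjusted p = 0.0418), beside 30 lower calls of 206 miRNAs (14.6%). Within replicate number 1 the difference was 0.28 for mmu-mir-99b, 0.06 for mmu-mir-125a and −0.02 for miR-125b on the log2 scale, curcumin-treated minus young. Within number 2 it was −1.51, −0.80 and −0.63, and within number 3 −0.91, −0.54 and −0.31, in the same order of members. With the replicate number as a block, 4 of the tested miRNAs were called in this comparison, none of them a member, and mmu-mir-99b was at −0.72 and mmu-mir-125a at −0.43 (both adjusted p = 0.249). The 4 red blood cell markers summed to 766 to 1422 RPMm in curcumin-treated mice and 2835 to 6353 RPMm in young mice. Taken singly, each of them overlapped between these groups. mir-451a, for example, had 146 to 346 RPMm in curcumin-treated mice and 224 to 3776 RPMm in young mice. The 4 leukocyte markers summed to 2643 to 3811 RPMm in curcumin-treated mice and 2547 to 7908 RPMm in young mice. Both marker sums were highest in young replicate 1. Among young libraries, it had the most mir-142a, mir-223, mir-144 and mir-451a per miRNA read, and the least mir-150, mir-155, mir-486a and mir-486b. The part of these markers in the result was not tested.

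**Figure D4:**
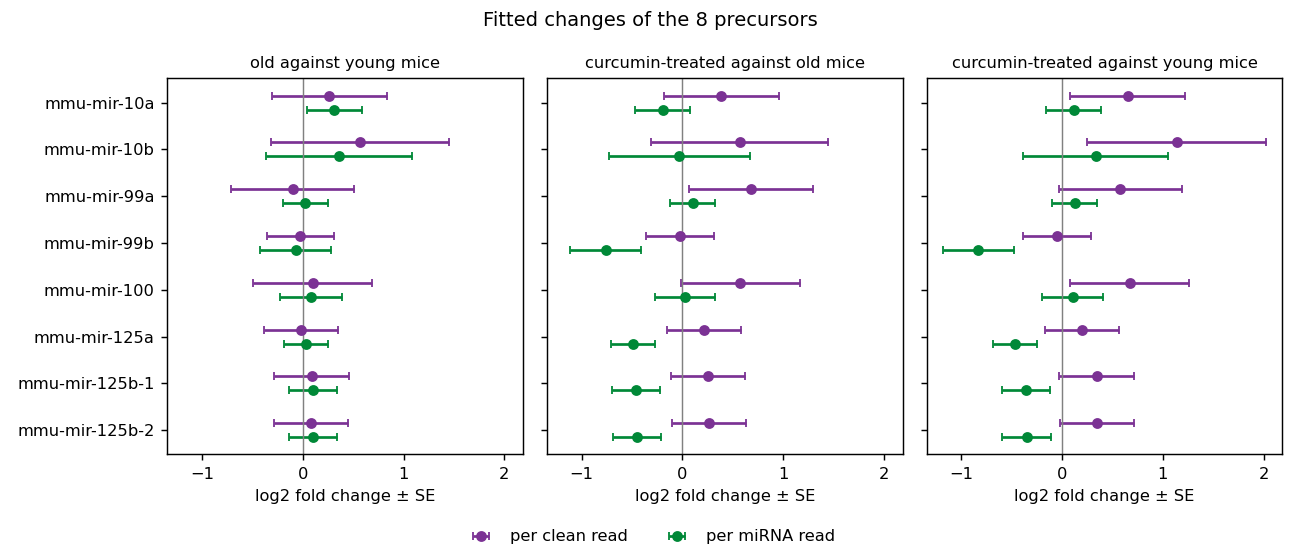
Log2 fold changes of the 8 precursors with their standard errors from the edgeR fits of all 9 libraries, per clean read and per miRNA read, for old against young, curcumin-treated against old and curcumin-treated against young mice. In the 2 curcumin comparisons mmu-mir-99b, mmu-mir-125a and the miR-125b loci lie below 0 per miRNA read, down to −0.83 for mmu-mir-99b, and none of the changes drawn passed an adjusted p of 0.05.

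Ratios between members within a library need neither denominator. The ratio of mmu-mir-125a to miR-125b was the steadiest of those given: it was 0.226, 0.172 and 0.172 in curcumin-treated mice, 0.198, 0.199 and 0.179 in the old mice, and 0.213, 0.194 and 0.202 in young mice. These precursors share a seed but lie on different chromosomes. The ratio of mmu-mir-100 to mmu-mir-99a ranged between 0.171 and 0.279 over the 9 libraries, also between 2 chromosomes. The ratio of mmu-mir-99b to mmu-mir-99a moved most between groups, at 0.481, 0.367 and 0.579 in curcumin-treated mice, 0.555, 1.33 and 0.860 in the old mice, and 0.413, 1.14 and 1.26 in young mice. Its mean log2 value differed by −0.88 between curcumin-treated and old mice and by −0.85 between curcumin-treated and young mice, but old replicate 1 and young replicate 1 lay among the curcumin libraries. The ratio of mmu-mir-10b to mmu-mir-10a was 0.0509, 0.473 and 0.348 in curcumin-treated mice, 0.294, 0.188 and 0.254 in the old mice, and 0.135, 0.224 and 0.360 in young mice. All of these ratios overlapped between all groups.

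Ratios were also taken within the clusters. Within the cluster of chromosome 17, mmu-mir-125a over mmu-mir-99b was 6.37, 7.52 and 6.74 in curcumin-treated mice, 6.63, 5.35 and 5.30 in the old mice, and 7.40, 4.59 and 5.21 in young mice. Within the cluster of chromosome 9, miR-125b, whose reads come from both of its loci, over mmu-mir-100 ran from 72.4 in curcumin replicate 1 to 172 in old replicate 2. Over mmu-mir-99a of chromosome 16, miR-125b ran from 13.6 to 35.7, in the same 2 libraries. Since reads of miR-125b cannot be assigned to a locus, the last 2 ratios do not isolate either cluster.

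**Figure D5:**
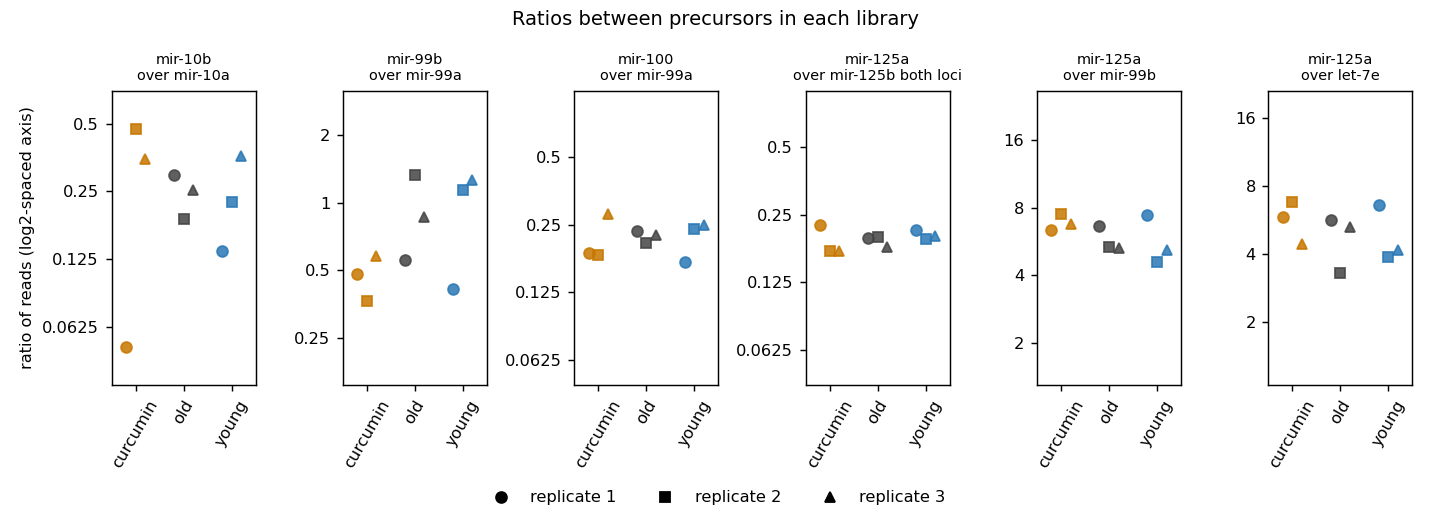
Ratios of reads between precursors in each library on log2-spaced axes of the same span, curcumin-treated, old and young mice from left to right, with symbols for the replicate number. The ratio of mmu-mir-125a to miR-125b stays between 0.172 and 0.226, while mmu-mir-99b over mmu-mir-99a ranges from 0.367 to 1.33 and mmu-mir-10b over mmu-mir-10a from 0.0509 to 0.473.

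The let-7 precursors between the members were described from a fixed list of 3. let-7 miRNAs restrain growth and developmental genes. let-7e, of the chromosome 17 cluster, had 27.2, 29.1 and 44.5 RPM in curcumin-treated mice, 38.5, 30.2 and 30.2 RPM in old mice, and 33.4, 28.2 and 36.8 RPM in young mice, a level close to that of mmu-mir-99b. On the scale of miRNA reads it had 848, 689 and 1261 RPMm in curcumin-treated mice, 1160, 2456 and 1276 RPMm in old mice, and 716, 2103 and 1953 RPMm in young mice. The groups overlapped, and its log2 change per miRNA read was −0.80 ± 0.43 (SE; adjusted p = 0.565 by edgeR's quasi-likelihood test) in curcumin-treated against old mice. let-7c-1 and let-7a-2, whose 5p forms are shared with other loci, had log2 changes of −0.48 ± 0.33 and −0.33 ± 0.24 in the same comparison, both with an adjusted p of 0.567. None of the 3 let-7 precursors passed the test in any comparison on either scale. Of the 3 miR-196 precursors, which also lie in the Hox clusters, none had enough reads to be tested. mir-196b had 7 reads in old replicate 1, 1 in old replicate 2 and 3 in young replicate 1, and 0 in the other libraries. mir-196a-1 and mir-196a-2 were each given 0.5 reads, in curcumin replicate 3.

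Likeness over the 9 libraries was measured among 195 miRNAs, loci of 1 miRNA summed, as the root mean square difference of centred log2 RPMm. It is given as a description. The miRNA most like mmu-mir-125a was miR-125b, at 0.126, followed by mir-103 at 0.127 and mir-490 at 0.132, beside a median of 0.550 over all miRNAs. miR-125b was likewise nearest to mmu-mir-125a, then to mir-30d at 0.162 and mir-490 at 0.186. mmu-mir-100 was nearest to mir-199b at 0.170, mir-199a at 0.198 and its seed-mate mmu-mir-99a at 0.219. mmu-mir-99b was nearest to mir-28a at 0.148, mir-191 at 0.158 and mir-676 at 0.174, none of them a member. mmu-mir-10b had no close neighbour: its nearest, mir-200b, lay at 0.730, then mir-1949 at 0.742 and mir-218 at 0.806, against its own SD of 1.02 over the libraries. mir-200b had just 0.0571 to 0.810 RPM, so counting error and the pseudocount weigh on this distance.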

How the data were processed

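Per the labels, small RNA of 15 to 45 nucleotides was treated with AlkB and T4 polynucleotide kinase and sequenced from 1 end. The submitters' processing notes name cutadapt 2.5 and mm10. How reads were annotated, and whether molecular identifiers were used, is not given in the sources used here. Deposited values are expected counts per annotation: some are fractional, as when a read is shared among several annotations, though the rule used is not stated, and library totals differ, so they were taken as not normalized. Values are per precursor and do not separate the 5p and 3p arms. They were rounded to whole numbers for the tests.

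Robust quasi-likelihood models with group as the only term were fitted to all 9 libraries together (edgeR 4.0.16, R 4.3.3), once over the 520 features kept by filterByExpr with clean reads as library size, and once over the 218 miRNA precursors kept with miRNA reads as library size, with Benjamini-Hochberg adjustment over each table and a threshold of 0.05. All 8 precursors were kept in both. SE is the log2 change divided by the root of F. Alternatives were TMM and RLE scaling, DESeq2 1.42.0, voom of limma 3.58.1, other filters, fits of just the compared pair of groups, genome-matched reads alone, the replicate number as a block, summed loci, and left-out libraries. TMM and RLE scaled the summed reads of the tested features, in place of the clean or miRNA reads. Features held 83.7% to 87.3% of clean reads. The precursors named were the 8 members, the let-7 and miR-196 precursors of the same clusters and the 3 nearest miRNAs by likeness (pseudocount of 1 RPMm). The members, lists and tests were chosen with earlier results of these data known. The labels do not say what the replicate number stands for. Deviations from the group means correlated between all 3 same-numbered curcumin and young libraries on both scales (0.144 to 0.349), while the lowest curcumin and old pair was at −0.101 per clean read and 0.0638 per miRNA read, and the lowest old and young pair at 0.0711 per miRNA read. On both scales young replicate 1 correlated most with replicate 1 among the old and among the curcumin libraries. Old replicate 1 likewise correlated most with replicate 1 among the curcumin libraries. The reverse direction was not computed.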

Additional observations from a re-analysis of the deposited data

How the results depend on the processing

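No member passed an adjusted p of 0.05 in the fits of all 9 libraries, by any scaling, filter or tool run. With TMM scaling of all features, the median log2 change, curcumin-treated against old mice, was 0.08, beside 0.31 per clean read. The members then ran between −0.23 for mmu-mir-99b and 0.48 for mmu-mir-99a, with mmu-mir-125a at 0.01. Of 960 values of the members under alternatives, 875 kept their direction and side of the threshold, 9 crossed it and 76 changed sign, none of them a called value; the cause was not tested. Read depth limits mmu-mir-10b most, with 14 to 159 reads a library. Setting the replicate number as a block made 4 calls per miRNA read in curcumin-treated against young mice, none of them a member, and 0 in the other comparisons. Same-numbered libraries correlated between −0.101 and 0.801 in their deviations. DESeq2 made 1 call per clean read and 2 per miRNA read in curcumin-treated against young mice. Testing all miRNAs without a filter made 2 calls in curcumin-treated against old and 5 in curcumin-treated against young mice. Without the 3 libraries numbered 1, 33 and 33 features were called per clean read and 27 and 40 miRNAs per miRNA read, in curcumin-treated against old and against young mice. Leaving out 1 library gave 0 to 31 calls per miRNA read in curcumin-treated against young mice, 31 without young replicate 1.

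The sign changes of log2 changes were these. For TMM and RLE scaling, the words per clean read and per miRNA read name the set of features fitted, not the denominator. With TMM scaling, the sign changed, to 0.0067 for mir-99a and 0.031 for mir-125a per clean read in old against young mice. It changed to 0.14 for mir-10b per miRNA read in curcumin-treated against old mice. With RLE scaling, the sign changed, to 0.0080 for mir-99a and 0.032 for mir-125a per clean read in old against young mice. It changed to 0.0119 for mir-99b per miRNA read in old against young mice. It changed to 0.16 for mir-10b per miRNA read in curcumin-treated against old mice. With limma-voom, the sign changed, to −0.081 for mir-100 per clean read in old against young mice. It changed to 0.17 for mir-99b per miRNA read in old against young mice. It changed to 0.0170 for mir-99b per clean read in curcumin-treated against old mice. It changed to −0.0015 for mir-100 per miRNA read in curcumin-treated against old mice. With the replicate number as a block, the sign changed, to 0.0135 for mir-99b per clean read in curcumin-treated against old mice. Without the 3 libraries numbered 1, the sign changed, to −0.32 for mir-10b, 0.15 for mir-99a and −0.0035 for mir-100 per clean read in old against young mice. It changed to −0.0162 for mir-10a, −0.45 for mir-10b, −0.087 for mir-99a, −0.24 for mir-100, −0.14 for mir-125a, −0.072 for mir-125b-1 and −0.070 for mir-125b-2 per miRNA read in old against young mice. It changed to 0.19 for mir-99b per clean read in curcumin-treated against old mice. It changed to 0.88 for mir-10b per miRNA read in curcumin-treated against old mice. It changed to 0.062 for mir-99b per clean read in curcumin-treated against young mice. It changed to −0.023 for mir-10a per miRNA read in curcumin-treated against young mice. Leaving out each library in turn gave −0.42 to 0.78 for mir-10a, −0.33 to 0.99 for mir-10b, −0.66 to 0.71 for mir-99a, −0.18 to 0.19 for mir-99b, −0.52 to 0.61 for mir-100, −0.31 to 0.28 for mir-125a, −0.17 to 0.35 for mir-125b-1 and −0.17 to 0.35 for mir-125b-2 per clean read in old against young mice. The ranges were −0.068 to 1.01 for mir-10b, −0.14 to 0.18 for mir-99a, −0.41 to 0.20 for mir-99b, −0.14 to 0.27 for mir-100, −0.19 to 0.15 for mir-125a, −0.14 to 0.25 for mir-125b-1 and −0.14 to 0.25 for mir-125b-2 per miRNA read in old against young mice. The ranges were −0.15 to 1.47 for mir-10b, −0.24 to 0.14 for mir-99b, −0.039 to 0.51 for mir-125a and −0.0100 to 0.52 for mir-125b-1 per clean read in curcumin-treated against old mice. The ranges were −0.32 to 0.031 for mir-10a, −0.60 to 0.46 for mir-10b, −0.053 to 0.27 for mir-99a and −0.16 to 0.24 for mir-100 per miRNA read in curcumin-treated against old mice. The ranges were −0.14 to 0.0101 for mir-99b and −0.0179 to 0.49 for mir-125a per clean read in curcumin-treated against young mice. The ranges were −0.24 to 0.97 for mir-10b and −0.035 to 0.24 for mir-100 per miRNA read in curcumin-treated against young mice.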
